A study of Arabidopsis thaliana with 18 samples.

Results

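The transcripts described are those of 10 Arabidopsis thaliana genes of the low-oxygen response and of ethanol fermentation, measured by RNA sequencing in whole seedlings kept in liquid medium. They were taken by gene identifier as ADH1 (AT1G77120), PDC1 (AT4G33070), SUS1 (AT5G20830), SUS4 (AT3G43190), HRE1 (AT1G72360), HRE2 (AT2G47520), LBD41 (AT3G02550), HRA1 (AT3G10040), PCO1 (AT5G15120) and PCO2 (AT5G39890). These are 10 of the 33602 gene models counted, and all 10 passed the filter on low counts that left 21347 genes for testing. They were chosen as genes of 1 known response, with earlier results of these data known.

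The 18 libraries fell into 6 groups of 3. One genotype was nlp2-2, a T-DNA insertion line described as a knock-out of NLP2 (AT4G35270), a transcription factor of the nitrate response, and the other was the Col-4 wild type. By the treatment protocol, seedlings of each genotype were sampled untreated at 10 days, starved of nitrogen for 3 days at 13 days, and after 3 mM nitrate had been added to such starved seedlings for a duration written as 30 without a unit. The labels name 1 mutant line, so its differences from wild type are those of that line. The labels, however, give the dated libraries of a replicate number the same planting and harvest dates in every condition, which does not match these ages, so how far the groups differed in age is not settled. No starved seedlings without nitrate were taken at the later time, so handling and time cannot be told apart from nitrate, nor any difference in age from starvation. No label states an oxygen level or a low-oxygen treatment.

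Between 14684639 and 25545031 reads were counted per library. NLP2 transcripts averaged 7.17 ± 3.1, 11.9 ± 2.64 and 12.9 ± 4.2 counts per 1e+06 reads (CPM) in untreated, starved and nitrate-treated nlp2, against 26.0 ± 2.66, 60.3 ± 3.75 and 46.1 ± 4.72 CPM in wild type in the same order (SD, n = 3), and were lower in nlp2 in each condition. The nitrite reductase gene NIR1, a standard nitrate-response gene, rose with nitrate by 5.87 in nlp2 and 5.88 in wild type on the log2 scale. Libraries of replicate 1 stood apart from their group after nitrate in both genotypes and in untreated nlp2: chi-square per degree of freedom between them and the other two was 29.7 to 61.6, against 6.55 to 17 for all other pairs within a group. Counts of called genes among the 10 that shifted without replicate 1 are given with and without it. The replicates are described as biological, but the labels do not say which plants or cultures each holds.

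Plants make ethanol when oxygen is too low for respiration: pyruvate decarboxylase turns pyruvate into acetaldehyde, alcohol dehydrogenase reduces it to ethanol, and the reaction frees NAD+ so that glycolysis can go on. Sucrose synthases feed this route by splitting sucrose with UDP. Oxygen is sensed through the group VII ethylene response factors, whose N-terminal cysteine is oxidised by plant cysteine oxidases in air, which marks these factors for degradation. In low oxygen the factors persist and switch on a core set of genes, which includes ADH1, PDC1, LBD41 and the cysteine oxidases PCO1 and PCO2 themselves. Nitric oxide, which plants can form from nitrite, also takes part in the degradation of these factors.

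The promoters of some low-oxygen genes carry short elements on which the response is known to depend. Sequences of the forward strand of each gene were taken from RefSeq (build TAIR10.1), which held all 10 genes. The 250 bases before the start of ADH1 (chr1:28975005-28975254, forward strand) and of PDC1 (chr4:15954804-15955053, reverse strand) are shown because these genes encode the final enzymes of the route and PDC1 changed most. Capitals mark AAACCA, the core of the anaerobic response element, and the G-box CACGTG, each searched on both strands.
ADH1: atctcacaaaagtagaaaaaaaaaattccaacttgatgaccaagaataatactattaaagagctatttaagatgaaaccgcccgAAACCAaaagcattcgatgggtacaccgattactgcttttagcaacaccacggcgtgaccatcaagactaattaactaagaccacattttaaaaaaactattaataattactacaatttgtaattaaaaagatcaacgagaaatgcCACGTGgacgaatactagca
PDC1: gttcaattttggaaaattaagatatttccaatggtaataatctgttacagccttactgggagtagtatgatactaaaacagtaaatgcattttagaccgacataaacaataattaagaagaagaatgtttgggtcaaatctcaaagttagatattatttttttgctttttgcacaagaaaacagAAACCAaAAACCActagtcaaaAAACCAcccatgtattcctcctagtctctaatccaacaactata
In ADH1, AAACCA began 166 bases and CACGTG 20 bases before the start. PDC1 had AAACCA at 66, 59 and 44 bases before its start and no CACGTG in this window.

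In the longer window of 1000 bases before to 50 bases after the start, AAACCA was found in all 10 genes, and in 73.5% of all 27443 genes with such a window. CACGTG was found in 3 of the 10 genes, ADH1, LBD41 and PCO2, and in 15.9% of all genes. HRE1, HRE2, HRA1, PCO1 and SUS1 each had a single AAACCA and no CACGTG in this window. That of PCO1 lay 14 bases after the start, on the reverse strand of the gene, and so not in its promoter.

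The levels of the 10 genes were set side by side as CPM per kilobase of gene model. ADH1 was the most abundant in every group, at 91.4 ± 42.8, 209 ± 98.1 and 216 ± 41.4 CPM per kilobase in untreated, starved and nitrate-treated nlp2, and 99.6 ± 19.8, 253 ± 70.9 and 265 ± 64.5 in wild type. HRE2 was the least abundant in every group, between 2.68 ± 0.986 in untreated nlp2 and 8.96 ± 0.299 CPM per kilobase in starved wild type. In untreated wild type the order below ADH1 was SUS1, SUS4, HRE1, LBD41, PCO1, PDC1, PCO2 and HRA1, of which SUS4 at 22.2 ± 0.58, HRE1 at 20 ± 6.15 and LBD41 at 16.8 ± 6.35 CPM per kilobase lay within each other's spread. In starved wild type PDC1, at 72.8 ± 19 CPM per kilobase, stood in the second place, although SUS4 at 66.3 ± 20.7 and SUS1 at 61.8 ± 13.7 did not differ from it beyond their spread. After nitrate HRE1, at 71.8 ± 18.1 CPM per kilobase, held the second place in wild type, with SUS1 at 61.4 ± 8.32 within its spread (SD, n = 3 throughout).

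**Figure D1:**
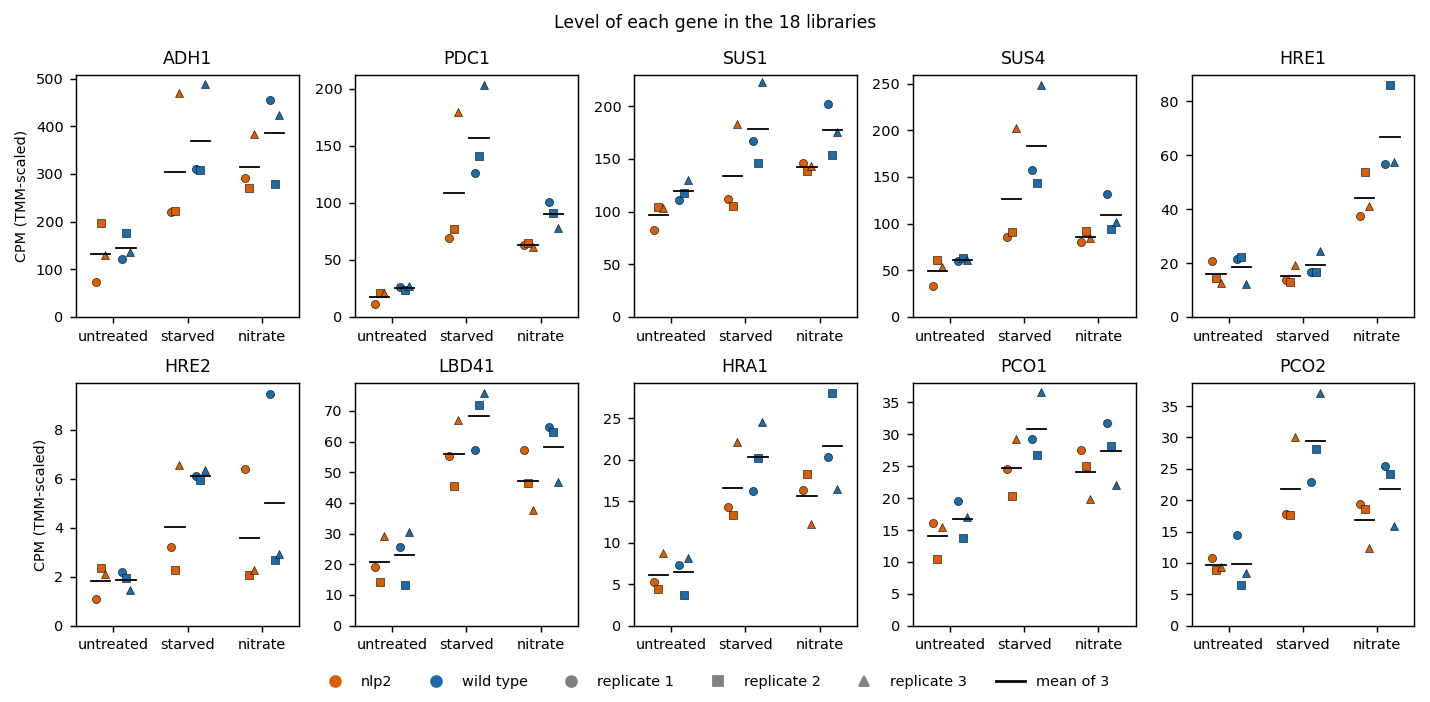
Level of each of the 10 genes in the 18 libraries, in CPM on a linear axis that starts at 0, by condition from untreated to starved to nitrate-treated. nlp2 is left of wild type, symbols give the replicate number and lines the mean of 3. All genes but HRE1 have a higher mean in starved than in untreated seedlings of both genotypes, while the starved and untreated libraries of HRE1 overlap and it reaches 37.4 to 53.7 CPM in nlp2 and 56.6 to 86.3 CPM in wild type only after nitrate.

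The first comparison asked how the genes differed between nitrogen-starved and untreated seedlings. ADH1, PDC1, SUS4, LBD41, HRA1, PCO1 and PCO2 were higher in starved seedlings of both genotypes, PDC1 most of all, by about 6-fold, while HRE1 did not pass the test in either genotype. Of the 10 genes 7 rose in nlp2 and 9 in wild type, and none fell (adjusted p below 0.05, edgeR quasi-likelihood test with Benjamini-Hochberg adjustment over all genes tested). In the same comparison 30.2% of all genes were called in nlp2, 14.5% as higher, and 29.1% in wild type, 13.8% as higher. The median log2 fold change of the 10 genes was 1.18 in nlp2 and 1.56 in wild type, and that of all genes tested was 0.02 in both. Whole seedlings were sequenced, so a change in the share of cells that express a gene cannot be told apart from a change in its RNA per cell.

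PDC1, the pyruvate decarboxylase that opens the ethanol route, had 69.1, 77.2 and 180 CPM in the 3 starved nlp2 libraries, against 11.2, 21.4 and 20.8 CPM in the untreated ones. In wild type it had 126, 141 and 203 CPM under starvation, against 26.0, 23.6 and 26.8 CPM without treatment. The groups were far apart in both genotypes, and replicate 3 was the highest starved library in each. The rise was 6.07-fold in nlp2 (log2 2.60 ± 0.33 SE, adjusted p = 2.27e-05, edgeR) and 6.13-fold in wild type (log2 2.62 ± 0.33, adjusted p = 2.05e-05, edgeR).

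ADH1, the alcohol dehydrogenase that completes the route, had 220, 222 and 469 CPM in starved nlp2, against 72.9, 197 and 129 CPM in untreated nlp2. In wild type it had 310, 308 and 488 CPM under starvation, against 122, 177 and 136 CPM without treatment. Again replicate 3 held the highest starved value in both genotypes, and the nlp2 groups were separated by a narrow gap. ADH1 rose 2.28-fold in nlp2 (log2 1.19 ± 0.36, adjusted p = 0.0232, edgeR) and 2.54-fold in wild type (log2 1.35 ± 0.37, adjusted p = 0.0121, edgeR). Its call was lost without starved replicate 3 in nlp2 (log2 0.73, adjusted p = 0.128, edgeR) and in wild type (log2 1.09, adjusted p = 0.0542, edgeR), and also without untreated replicate 1 or 3 in nlp2 (adjusted p = 0.0995 and 0.0606, edgeR) or untreated replicate 1 in wild type (adjusted p = 0.0545, edgeR). ADH1 shares 61 bases with AT1G77122 on the other strand, and the sources used here do not say whether counting used strand. AT1G77122 averaged 17.6 ± 2.01 CPM in starved nlp2 and 17.2 ± 1.16 CPM in starved wild type, and it fell by 0.64 and 0.56 on the log2 scale while ADH1 rose.

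The sucrose synthase SUS4 had 86.1, 90.9 and 203 CPM in starved nlp2, against 33.5, 60.6 and 53.6 CPM in untreated nlp2. In starved wild type it had 157, 144 and 249 CPM, against 59.7, 62.9 and 61.4 CPM in untreated wild type. No starved library overlapped the untreated ones, and the log2 fold changes were 1.36 ± 0.30 in nlp2 (adjusted p = 0.00301, edgeR) and 1.58 ± 0.30 in wild type (adjusted p = 0.00099, edgeR). Its close copy SUS1 moved less: it had 112, 105 and 183 CPM in starved and 82.9, 104 and 103 CPM in untreated nlp2, and 167, 146 and 223 CPM in starved and 111, 118 and 130 CPM in untreated wild type. SUS1 rose in wild type (log2 0.58 ± 0.18, adjusted p = 0.023, edgeR), a call lost without starved replicate 3 (log2 0.39, adjusted p = 0.146, edgeR) or untreated replicate 1 or 2 (adjusted p = 0.0911 and 0.0727, edgeR). In nlp2 its log2 fold change of 0.46 ± 0.18 missed the threshold (adjusted p = 0.0645, edgeR), and it passed with the replicate number as a block (log2 0.44, adjusted p = 0.0386, edgeR). The coding sequences of SUS1 and SUS4 share 84.5% of their bases with a longest exact match of 38 bases, and reads that hit several places equally well had been removed, so some reads of either gene may be missing.

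LBD41, a LOB-domain transcription factor used as a marker of the low-oxygen response, had 55.3, 45.4 and 67.1 CPM in starved nlp2, against 19.2, 14.2 and 29.2 CPM in untreated nlp2. In wild type it had 57.2, 72.1 and 75.9 CPM under starvation, against 25.7, 13.4 and 30.4 CPM without treatment. It rose by 1.41 ± 0.29 in nlp2 (adjusted p = 0.00137, edgeR) and 1.55 ± 0.29 in wild type (adjusted p = 0.000653, edgeR) on the log2 scale. HRA1, a trihelix transcription factor that dampens the activity of the group VII factor RAP2.12, ranged from 13.3 to 22.1 CPM in starved and 4.45 to 8.74 CPM in untreated nlp2, and from 16.2 to 24.5 CPM in starved and 3.72 to 8.15 CPM in untreated wild type. Its log2 fold changes were 1.40 ± 0.31 in nlp2 (adjusted p = 0.00239, edgeR) and 1.63 ± 0.31 in wild type (adjusted p = 0.000724, edgeR).

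Both cysteine oxidases of the oxygen-sensing step rose. PCO1 ranged from 20.3 to 29.3 CPM in starved and 10.5 to 16.1 CPM in untreated nlp2, and from 26.7 to 36.7 CPM in starved and 13.8 to 19.5 CPM in untreated wild type. Its log2 fold change was 0.81 ± 0.19 in nlp2 (adjusted p = 0.00359, edgeR) and 0.87 ± 0.19 in wild type (adjusted p = 0.00195, edgeR). PCO2 ranged from 17.6 to 30.1 CPM in starved and 8.95 to 10.8 CPM in untreated nlp2, and from 22.9 to 37.1 CPM in starved and 6.45 to 14.4 CPM in untreated wild type. It rose by 1.17 ± 0.29 in nlp2 (adjusted p = 0.00628, edgeR) and 1.57 ± 0.29 in wild type (adjusted p = 0.000678, edgeR).

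HRE1 and HRE2 are the members of group VII whose own transcripts respond to low oxygen. Under starvation HRE1 was called in neither genotype and HRE2 in wild type alone. HRE1 had 13.7, 12.9 and 19.2 CPM in starved nlp2 and 20.6, 14.5 and 12.6 CPM in untreated nlp2. In wild type it had 16.5, 16.5 and 24.3 CPM under starvation and 21.5, 22.4 and 12.1 CPM without treatment. The groups overlapped in both genotypes, and the 95% interval of the log2 fold change was -0.63 to 0.51 in nlp2 (estimate -0.06) and -0.53 to 0.60 in wild type (estimate 0.03). Those intervals lie below the estimates for PDC1, LBD41, HRA1 and PCO2 of either genotype, although no test between genes was made. HRE1 shares 124 bases with AT1G72370 on the other strand, and the sources used here do not say whether counting used strand. With starvation AT1G72370 fell from 564 ± 46.4 to 401 ± 17.6 CPM in nlp2 (log2 -0.49, adjusted p = 0.000922, edgeR). In wild type it fell from 540 ± 49.1 to 393 ± 17.2 CPM (log2 -0.46, adjusted p = 0.00165, edgeR). Its part in the counts of HRE1 was not tested.

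HRE2 had 3.20, 2.27 and 6.56 CPM in starved and 1.07, 2.34 and 2.10 CPM in untreated nlp2, with overlap between the groups. In wild type it had 6.13, 5.93 and 6.34 CPM under starvation, against 2.21, 1.96 and 1.45 CPM without treatment. HRE2 rose in wild type (log2 1.70 ± 0.55, adjusted p = 0.0294, edgeR), while the nlp2 value of 1.09 ± 0.56 missed the threshold (adjusted p = 0.164, edgeR). The wild-type call was lost without any 1 of the 6 libraries compared (log2 1.52 to 1.84, adjusted p = 0.0588 to 0.102, edgeR). HRE2 is the gene with the fewest reads of the 10, at 110 reads summed over the 3 untreated nlp2 libraries and 100 over those of wild type.

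The response to starvation was set against genotype by testing the difference itself, nlp2 minus wild type. None of the 10 genes differed (lowest adjusted p = 1, edgeR), none had an unadjusted p below 0.05, and DESeq2 called none either. Across all genes edgeR called 0, DESeq2 called 2, and 395 had an unadjusted p below 0.05. All 10 estimates were below 0, between -0.61 ± 0.80 for HRE2 and -0.01 ± 0.45 for PDC1. The intervals reached from -0.66 to 0.43 for SUS1, the narrowest, to -2.30 to 1.08 for HRE2, the widest, so differences within these bounds were not detectable here. When starvation was averaged over both genotypes, a contrast added after the values were seen, 9 of the 10 genes rose, against 22.5% of all genes called higher. These 9, all but HRE1, remained called when any single library was left out, and HRE2 was not called without replicate 3 of all groups (log2 1.10, adjusted p = 0.0973, edgeR).

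Leaving out all libraries of 1 replicate number, also added after the data were seen, kept 4 to 6 of the calls in nlp2 and 6 to 7 in wild type. The 4 calls in nlp2 were those without replicate 1. With library size alone in place of TMM (trimmed mean of M values) scaling, the median of all genes under starvation moved to 0.22 in nlp2 and 0.23 in wild type, and the share of calls that were higher was 76.1% in nlp2 and 77.0% in wild type, against 48.1% in nlp2 and 47.5% in wild type with TMM. The medians of the 10 genes were then 1.36 in nlp2 and 1.77 in wild type.

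**Figure D2:**
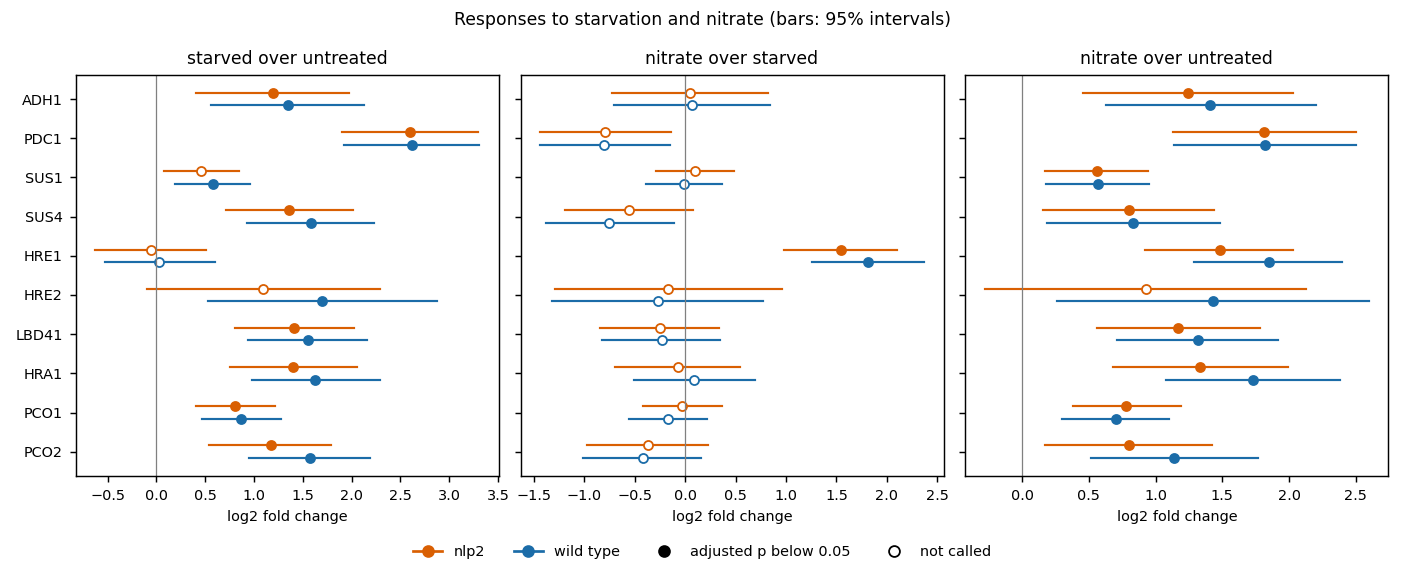
Log2 fold changes with 95% intervals for starved over untreated, nitrate over starved and nitrate over untreated seedlings, with nlp2 above wild type for each gene. Filled points are called at an adjusted p below 0.05: 7 genes in nlp2 and 9 in wild type for starved over untreated, HRE1 alone for nitrate over starved, and 9 genes in nlp2 and 10 in wild type for nitrate over untreated.

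Counts of called genes in the rest of the pathway under starvation are to be read against the 30.2% of all genes called in nlp2 and 29.1% in wild type. Of 11 other genes of the oxygen-sensing route, such as the constitutive group VII factors and the remaining cysteine oxidases, 2 rose in nlp2 and 2 rose and 1 fell in wild type. RAP2.12, the constitutive factor that starts the response, rose by 0.23 in nlp2 and 0.21 in wild type, and ACBP2, one of the acyl-CoA-binding proteins that hold RAP2.12 at the plasma membrane, rose by 0.36 in nlp2 and 0.33 in wild type. PCO5 fell by 0.31 in wild type. The medians of this list, here and below in log2 fold change, were 0.03 in nlp2 and -0.07 in wild type, near the 0.02 of all genes.

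Of 11 other fermentation enzymes 2 rose in each genotype and none fell. They were AT5G01320, which rose by 0.76 in nlp2 and 0.99 in wild type, and AT4G17260, which rose by 0.41 in nlp2 and 0.44 in wild type. PDC2, the second pyruvate decarboxylase, had log2 fold changes of 0.36 ± 0.18 in nlp2 and 0.44 ± 0.18 in wild type that missed the threshold (adjusted p = 0.146 and 0.0772 in that order, edgeR). Of 22 other genes of sucrose cleavage and glycolysis, 6 rose and 1 fell in nlp2, and 4 rose and 3 fell in wild type. SUS3, another sucrose synthase, rose by 1.69 in nlp2 and 1.32 in wild type, while the triose-phosphate isomerase TPI fell by 0.39 in nlp2 and 0.44 in wild type. PFK7, a phosphofructokinase, rose by 0.54 and PFK6 fell by 0.41 in wild type.

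Of 40 further genes of the core low-oxygen set, 16 rose and 4 fell in nlp2, and 19 rose and 5 fell in wild type, where 14.5% of all genes rose in nlp2 and 13.8% in wild type. The medians of the 40 were 0.38 in nlp2 and 0.47 in wild type. AT4G17670 averaged 35.8 ± 1.42 CPM in starved and 6.55 ± 3.01 CPM in untreated nlp2, a rise of 2.46, and rose by 2.44 in wild type. AT5G66985 rose by 1.48 in nlp2 and 1.98 in wild type, and AT4G10270 by 1.85 in nlp2 and 2.03 in wild type. AT1G05575 went the other way and fell by 2.37 in nlp2, and the lowest estimate of the 40 in wild type was -2.18. None of the 40 was called for a difference between the genotypes in this response. The set was split, since 20 of its 40 members were not called in nlp2 and 16 were not called in wild type.

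Shoot markers moved with starvation as well, while most root markers were not called. The summed level of 11 shoot markers, photosynthesis genes among them, was 5320 to 6480 CPM in starved and 13700 to 17400 CPM in untreated nlp2, and 6350 to 6970 CPM in starved and 16500 to 18800 CPM in untreated wild type. Of the 10 shoot markers tested 8 fell in nlp2 and 9 in wild type, led by CA1. Of the 21347 genes tested, 3342 were called lower in nlp2 and 3257 in wild type. The summed level of 18 root markers was 298 to 369 CPM in starved and 253 to 313 CPM in untreated nlp2, and 334 to 343 CPM in starved and 289 to 313 CPM in untreated wild type. Of these 18 genes 2 rose, 2 fell and 14 were not called in nlp2. In wild type 1 rose, 1 fell and 16 were not called. Their medians were 0.10 in nlp2 and 0.04 in wild type. All markers of both lists had reads in every group, and their part in the rise of the 10 genes was not tested.

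The second comparison asked what changed when nitrate was given to starved seedlings, the step that the series was built around. HRE1 was the 1 gene of the 10 called within a genotype, and it rose about 3-fold in both. Of all genes 18.6% were called in nlp2, 9.36% as higher and 9.23% as lower, and 21.4% in wild type, 11.2% as higher and 10.2% as lower. The median log2 fold change of the 10 genes was -0.12 in nlp2 and -0.20 in wild type, against -0.01 and -0.00 for all genes.

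HRE1 had 37.4, 53.7 and 41.1 CPM in nitrate-treated nlp2, against 13.7, 12.9 and 19.2 CPM in starved nlp2. In wild type it had 56.6, 86.3 and 57.7 CPM with nitrate, against 16.5, 16.5 and 24.3 CPM under starvation. All nitrate libraries lay above all starved ones, and replicate 2 gave the highest nitrate value in both genotypes. The rise was 2.91-fold in nlp2 (log2 1.54 ± 0.26, adjusted p = 0.000483, edgeR) and 3.51-fold in wild type (log2 1.81 ± 0.26, adjusted p = 7.8e-05, edgeR), and it was called under each of the 15 alternatives computed for either genotype. The difference of these responses, nlp2 minus wild type, was -0.27 ± 0.36 with an interval of -1.05 to 0.50 (adjusted p = 1, edgeR). None of the 10 genes had an unadjusted p below 0.05 for this difference and DESeq2 called none, and across all genes edgeR called 0, DESeq2 called 2 and 313 had an unadjusted p below 0.05.

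HRE1 overlaps AT1G72370 by 124 bases on the other strand. AT1G72370 averaged 479 ± 57.8 CPM with nitrate and 401 ± 17.6 CPM under starvation in nlp2, and 465 ± 26.6 CPM with nitrate and 393 ± 17.2 CPM under starvation in wild type. Its log2 fold changes with nitrate, 0.26 ± 0.10 in nlp2 and 0.24 ± 0.10 in wild type, were not called (adjusted p = 0.0834 and 0.0946 in that order, edgeR). HRE1 itself shares 52.3% of its coding bases with HRE2, with a longest exact match of 10 bases.

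None of the fermentation genes passed the test of nitrate against starvation within a genotype. PDC1 had 62.9, 64.5 and 60.9 CPM in nitrate-treated nlp2 and 101, 91.3 and 78.2 CPM in nitrate-treated wild type, in both cases below every starved library of the same genotype. Its log2 fold change was -0.79 ± 0.31 in nlp2 (adjusted p = 0.0926, edgeR) and -0.80 ± 0.30 in wild type (adjusted p = 0.0791, edgeR). SUS4 had 80.5, 92.0 and 84.9 CPM in nitrate-treated nlp2 and 132, 94.0 and 102 CPM in nitrate-treated wild type, with log2 fold changes of -0.56 ± 0.30 and -0.75 ± 0.30 that were not called (adjusted p = 0.239 and 0.0924 in that order, edgeR). ADH1 had 291, 270 and 384 CPM in nlp2 and 456, 279 and 423 CPM in wild type after nitrate, overlapping the starved libraries, and its log2 fold changes were 0.05 ± 0.36 and 0.07 ± 0.36 in the same order.

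Averaged over both genotypes, a contrast added after these values were seen, PDC1 was lower with nitrate (log2 -0.79 ± 0.22, adjusted p = 0.00996, edgeR), as was SUS4 (log2 -0.65 ± 0.21, adjusted p = 0.026, edgeR), and HRE1 was higher (log2 1.68 ± 0.19, adjusted p = 2.41e-06, edgeR). In that contrast 33.6% of all genes were called, 16.5% as higher and 17.1% as lower. The calls of PDC1 and SUS4 rested on replicate 3: without the libraries of that number PDC1 was at -0.34 (adjusted p = 0.159, edgeR) and SUS4 at -0.22 (adjusted p = 0.398, edgeR), whereas HRE1 was at 1.95 (adjusted p = 2.22e-05, edgeR). SUS4 was also not called without starved replicate 3 of nlp2 (log2 -0.39, adjusted p = 0.0613, edgeR) or of wild type (log2 -0.51, adjusted p = 0.0752, edgeR), nor without replicate 2 of all groups or 1 of 3 nitrate libraries (adjusted p = 0.0501 to 0.0564, edgeR).

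Within replicate numbers, as differences of log2(CPM + 0.5), the nitrate step varied. The 10 genes of a replicate number were read from the same libraries, so they are not independent observations. Shares over all genes were not computed for these differences. In replicate 3, 9 of the 10 genes had less RNA with nitrate than under starvation in both genotypes, all but HRE1, with a median log2 difference of -0.83 in nlp2 and -0.71 in wild type. In replicate 1, 8 of the 10 genes had more RNA with nitrate in both genotypes, with medians of 0.18 in nlp2 and 0.23 in wild type. In replicate 2, 8 of 10 had more in nlp2 (median 0.18) and 4 of 10 in wild type (median -0.17). HRE1 was higher in all 3, by 1.41, 2.02 and 1.08 in nlp2 and by 1.75, 2.35 and 1.23 in wild type. The labels give planting and harvest dates for 13 of the 18 libraries, and all dated libraries of 1 replicate number carry the same dates. The 5 undated libraries are the 3 of starved wild type and replicates 1 and 2 of nitrate-treated wild type. Nitrate and starved libraries of wild type are therefore paired by number alone.

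**Figure D3:**
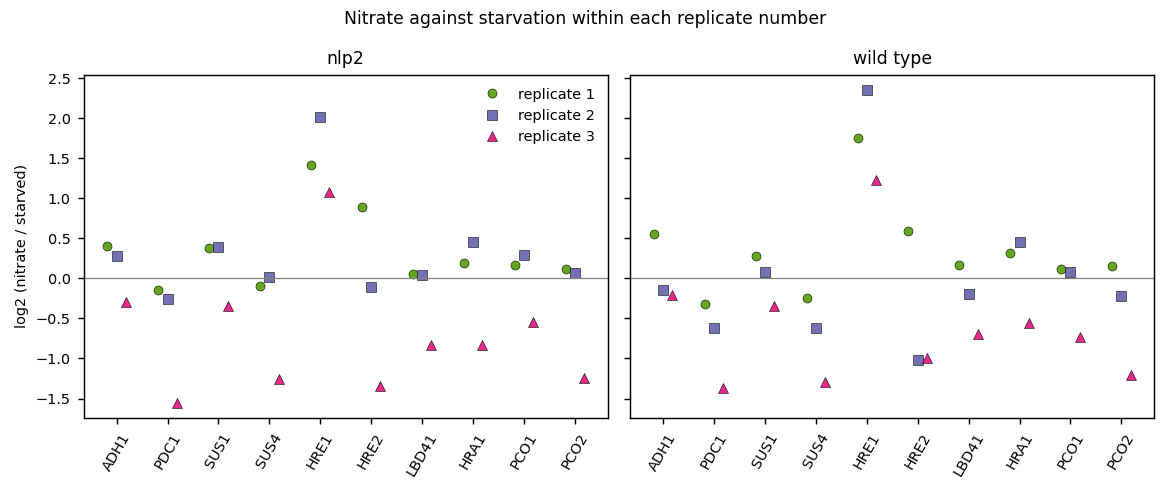
Log2 difference between the nitrate-treated and the starved library of the same replicate number, for nlp2 on the left and wild type on the right. Points of replicate 3 lie below 0 for 9 of 10 genes in both panels, while all 3 points of HRE1 lie above 1.

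HRE2 and the remaining regulators did not pass the test with nitrate. HRE2 had 6.38, 2.07 and 2.28 CPM in nitrate-treated nlp2 and 9.48, 2.68 and 2.92 CPM in nitrate-treated wild type, with replicate 1 far above the others in both genotypes. Its log2 fold change in wild type was -0.27 ± 0.49, and -1.13 without replicate 1 of all groups (adjusted p = 0.0418, edgeR). LBD41, HRA1, PCO1 and PCO2 had log2 fold changes between -0.37 for PCO2 and -0.03 for PCO1 in nlp2, and between -0.42 for PCO2 and 0.09 for HRA1 in wild type. The intervals of these 4 genes lay within -0.97 to 0.69 except for the lower bound of PCO2 in wild type, -1.01.

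Of the 3 phytoglobins, haem proteins of which PGB1 and PGB2 are known to turn nitric oxide into nitrate, 2 rose with nitrate in each genotype, and PGB3 was not called (log2 -0.08 ± 0.13 in nlp2 and -0.14 ± 0.13 in wild type). PGB1, also a member of the core low-oxygen set, had 93.1, 88.4 and 84.1 CPM in nitrate-treated nlp2, against 12.4, 14.6 and 24.9 CPM in starved nlp2. In wild type PGB1 had 123, 83.9 and 82.6 CPM with nitrate, against 22.6, 18.1 and 31.7 CPM under starvation. It rose by 2.37 ± 0.24 in nlp2 (adjusted p = 1.96e-06, edgeR) and 2.00 ± 0.23 in wild type (adjusted p = 7.66e-06, edgeR), and PGB2 rose by 1.19 in nlp2 and 1.63 in wild type. Under starvation PGB1 was not called, with a log2 fold change of -0.41 ± 0.24 in nlp2 and -0.17 ± 0.23 in wild type.

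Of the 40 further members of the core set, 5 rose and 4 fell with nitrate in nlp2, and 9 rose and 6 fell in wild type, with medians of 0.06 and 0.01 in the same order. Of all genes 9.36% rose and 9.23% fell in nlp2, and 11.2% rose and 10.2% fell in wild type, so the counts in nlp2 were near the background. Besides PGB1 those with the smallest p were PHI-1 (1.94 in nlp2 and 2.03 in wild type), SRO5 (2.02 in nlp2 and 1.66 in wild type) and the calmodulin-like gene CML38 (1.75 in nlp2 and 1.63 in wild type). In sucrose cleavage and glycolysis 5 of 22 genes rose in nlp2 and 6 in wild type, and none fell. They include cytosolic enzymes of glycolysis, namely the dehydrogenase gene GAPC2 (0.88 in nlp2 and 1.13 in wild type), the aldolase gene FBA8 (0.77 in nlp2 and 1.06 in wild type), the enolase gene ENO2 (0.71 in nlp2 and 0.89 in wild type) and TPI (0.40 in nlp2 and 0.52 in wild type).

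Of the 11 other fermentation enzymes 1 rose in nlp2 and 2 in wild type. The alanine aminotransferase gene ALAAT1, whose enzyme makes alanine from pyruvate, rose by 0.43 in nlp2 and 0.47 in wild type, and the acetyl-CoA synthetase gene ACS rose by 0.33 in wild type. In the oxygen-sensing route 1 of 11 genes fell in nlp2, and 1 rose and 2 fell in wild type. Of all genes 9.36% rose and 9.23% fell in nlp2, and 11.2% rose and 10.2% fell in wild type. The counts of both lists in nlp2 were near these shares. ACBP2 fell by 0.31 in nlp2 and 0.37 in wild type, ACBP1 rose by 0.44 and PCO3 fell by 0.33 in wild type.

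Some genes of water deficit, cold and abscisic acid rose in the same nitrate libraries. Of 10 such genes 4 rose in nlp2 and 5 in wild type, and none fell. Among all genes 9.36% rose in nlp2 and 11.2% in wild type. The remaining genes of the list were not called, and 3 of the 10 in nlp2 and 2 in wild type had estimates below 0. The summed level of the 10 was 1140 to 1450 CPM with nitrate and 531 to 717 CPM under starvation in nlp2. In wild type it was 1340 to 1620 CPM with nitrate and 577 to 646 CPM under starvation. RD29A, which rose most of the 10, averaged 130 ± 3.56 CPM with nitrate and 29.2 ± 2.24 CPM under starvation in nlp2. In wild type RD29A averaged 168 ± 34.9 CPM with nitrate and 21.5 ± 1.57 CPM under starvation. Root markers summed to 300 to 351 CPM with nitrate and 298 to 369 CPM under starvation in nlp2. In wild type they summed to 340 to 369 CPM with nitrate and 334 to 343 CPM under starvation. Of the 18 root markers 3 rose in each genotype, SCR and the root hair regulators RSL4 and RHD6. The other 15 were not called in either genotype, and 7 of the 18 had estimates below 0 in each. The median log2 fold changes were 0.17 in nlp2 and 0.04 in wild type. The part of these genes in the rise of HRE1 was not tested.

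The third comparison set nitrate-treated against untreated seedlings. All the fermentation genes and most regulators were still above the untreated level: 9 of 10 genes were higher in nlp2 and 10 of 10 in wild type, where 38.6% of all genes were called in nlp2, 19.6% as higher, and 41.5% in wild type, 21.7% as higher. This comparison shares the untreated libraries with that of starvation and the nitrate libraries with that of nitrate, so it is no separate support for either. Of the 10 shoot markers tested 8 were lower in nlp2 and 9 in wild type, with medians of -0.84 and -1.05, and their summed level was 5030 to 5440 CPM with nitrate and 13700 to 17400 CPM untreated in nlp2, and 5840 to 6090 CPM with nitrate and 16500 to 18800 CPM untreated in wild type. Of the 10 genes of water deficit, cold and abscisic acid 5 were higher and 1 was lower in each genotype. The part of these genes in the higher levels of the members was not tested. PDC1 was 3.51-fold higher in nlp2 (log2 1.81 ± 0.32, adjusted p = 0.000343, edgeR) and 3.53-fold higher in wild type (log2 1.82 ± 0.32, adjusted p = 0.000273, edgeR). ADH1 was 2.37-fold higher in nlp2 (log2 1.24 ± 0.37) and 2.66-fold higher in wild type (log2 1.41 ± 0.37). HRE1 was 2.79-fold higher in nlp2 (log2 1.48 ± 0.26) and 3.59-fold higher in wild type (log2 1.85 ± 0.26).

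HRE2 was not called in nlp2 (log2 0.93 ± 0.57, adjusted p = 0.22, edgeR), and its call in wild type (log2 1.43 ± 0.55, adjusted p = 0.0486, edgeR) was lost with the replicate block (log2 1.37, adjusted p = 0.0624, edgeR) and without replicate 1 of the nitrate group (log2 0.58, adjusted p = 0.388, edgeR). PCO2 was called in nlp2 (log2 0.80 ± 0.29, adjusted p = 0.0427, edgeR) but not with the block (log2 0.80, adjusted p = 0.07, edgeR). The counts depended on replicate 1: without it 3 genes were called in nlp2 and 4 in wild type. Without replicate 2 the counts were 5 in nlp2 and 5 in wild type, and without replicate 1 of untreated nlp2 alone the count in nlp2 was 5. SUS1 and SUS4 in both genotypes, and ADH1 and PCO2 in nlp2, each lost their call when 1 of several libraries was left out. The difference of this response between the genotypes was called for none of the 10 genes by either tool, with 0 at an unadjusted p below 0.05, and 0.00937% of all genes were called. Its estimates lay between -0.51 ± 0.80 for HRE2 and 0.08 ± 0.27 for PCO1.

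The last comparison set nlp2 against wild type. All 10 genes had a lower fitted level in nlp2 than in wild type in each of the 3 conditions, but none of these differences passed the test. Across all genes 0.361%, 0.365% and 0.787% were called in untreated, starved and nitrate-treated seedlings. The median log2 difference of the 10 genes was -0.19 untreated, -0.37 starved and -0.36 with nitrate, and that of all genes lay between -0.01 and 0.00. At an unadjusted p below 0.05 there were 0, 1 and 1 of the 10 genes, SUS1 in starved and HRE1 in nitrate-treated seedlings, and DESeq2 called none.

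**Figure D4:**
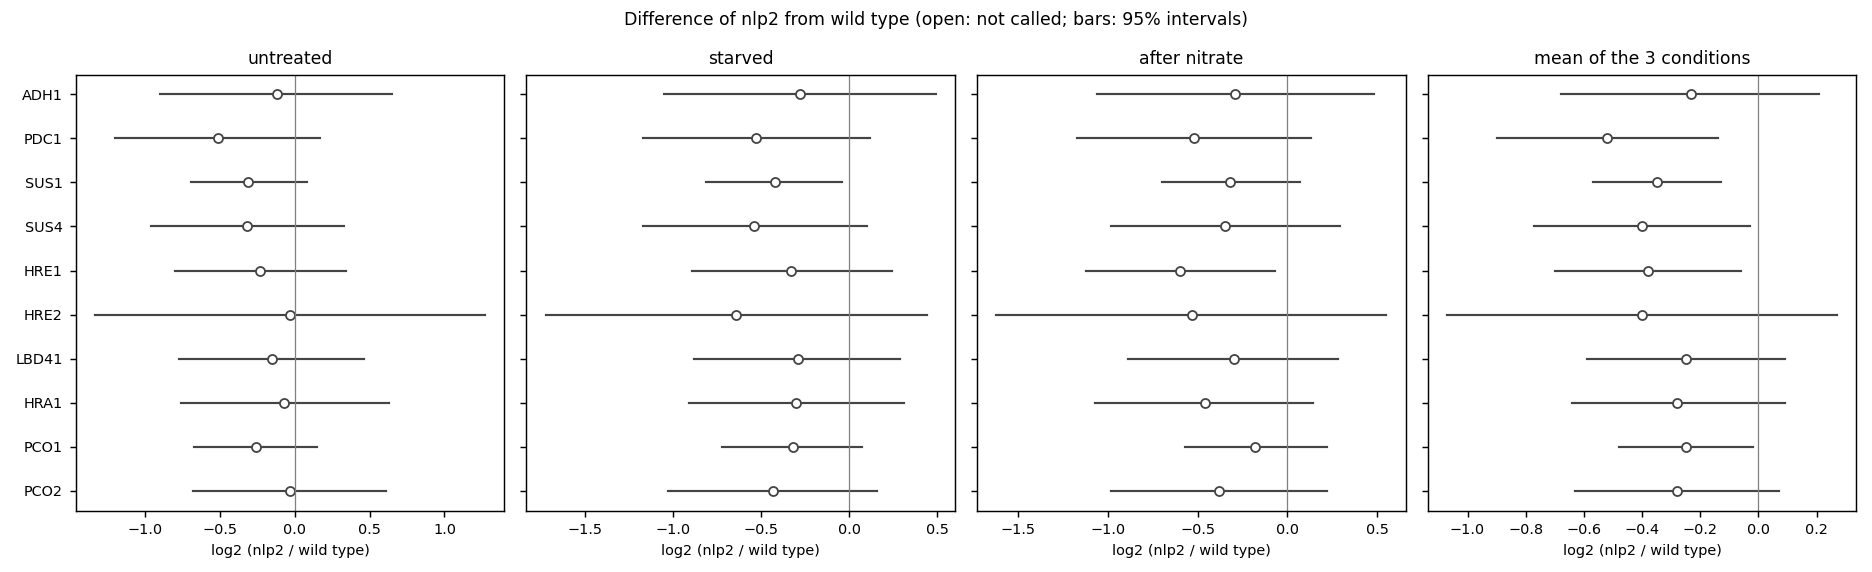
Log2 difference of nlp2 from wild type with 95% intervals, in each condition and as the mean of the 3 conditions. All 40 points lie below 0 and all are open, which marks an adjusted p of 0.05 or more, and in untreated seedlings all intervals include 0.

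After nitrate the libraries of 4 genes did not overlap between the genotypes, against 2 genes in untreated and 0 in starved seedlings. The share of all genes without overlap was not computed, so these counts have no background to be read against. HRE1 had 37.4, 53.7 and 41.1 CPM in nlp2, against 56.6, 86.3 and 57.7 CPM in wild type (log2 -0.60 ± 0.25, interval -1.12 to -0.07, adjusted p = 0.546, edgeR). PDC1 had 62.9, 64.5 and 60.9 CPM in nlp2, against 101, 91.3 and 78.2 CPM in wild type (log2 -0.52 ± 0.31, adjusted p = 0.861, edgeR). SUS1 had 146, 138 and 143 CPM in nlp2, against 202, 154 and 175 CPM in wild type (log2 -0.32 ± 0.18, adjusted p = 0.838, edgeR). SUS4 was the fourth, with the lowest wild-type library at 94.0 CPM and the highest nlp2 library at 92.0 CPM.

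Within a replicate number, all 10 genes were lower in nlp2 in each of the 3 pairs after nitrate. The 10 genes of a pair were read from the same libraries, so they are not independent observations. The share of all genes lower in each pair was not computed. The labels date no starved wild-type library and, after nitrate, only replicate 3 of wild type. The other pairs in those conditions rest on the number alone. In starved seedlings 10, 10 and 9 of 10 were lower in replicates 1, 2 and 3, and in untreated seedlings 10, 5 and 6. The direction in untreated seedlings was therefore not shared by the replicates, and there PCO2 and HRE2 had a difference above 0 with library size alone (0.02 for both genes). Leaving out 1 untreated library turned the sign of 1 or more of ADH1, LBD41, PCO2, HRE2 and HRA1 in that condition. HRE2 after nitrate was at 0.32 without replicate 1 of the wild type.

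Averaged over the 3 conditions, the differences lay between -0.52 ± 0.18 for PDC1 and -0.23 ± 0.21 for ADH1, with a median of -0.32, and 5 of 10 genes had an unadjusted p below 0.05. None was called, in a comparison in which 3.28% of all genes were called, 1.66% as lower. SUS1 came nearest (log2 -0.35 ± 0.11, adjusted p = 0.0874, edgeR), and it passed with the replicate block (log2 -0.35, adjusted p = 0.0302, edgeR) and in DESeq2 (log2 -0.35, adjusted p = 0.0323, DESeq2). Without starved replicate 3 of nlp2, the library with the highest ADH1, PDC1, SUS1 and SUS4 of that group, 3 genes were called: PDC1 (log2 -0.71, adjusted p = 0.00285, edgeR), SUS1 (log2 -0.45, adjusted p = 0.00628, edgeR) and SUS4 (log2 -0.57, adjusted p = 0.019, edgeR). Starved replicate 3 of wild type, also the highest of its group for ADH1, PDC1, SUS1 and SUS4, stayed in that fit. With any 1 replicate number left out of all groups, none of the 10 genes was called.

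Most low-oxygen genes outside the 10 also had lower estimates in nlp2, and none was called. Of the 40 further members of the core set, 28, 34 and 32 had a lower fitted level in nlp2 in untreated, starved and nitrate-treated seedlings, with medians of -0.08, -0.22 and -0.20. Of the 11 other fermentation enzymes 4, 5 and 5 were lower, with medians of 0.01, 0.02 and 0.01. PDC2 was at -0.12 ± 0.18, -0.20 ± 0.18 and -0.40 ± 0.18 in the same conditions. Root markers were lower in nlp2 for 13 of 18 genes in each condition, with medians of -0.06, -0.11 and -0.11, and none was called. Of 10 shoot markers 9, 7 and 7 were lower in nlp2, with medians of -0.15, -0.06 and -0.08. Among them CA1, a carbonic anhydrase gene, was called lower in starved (log2 -0.77 ± 0.14, adjusted p = 0.0114, edgeR) and nitrate-treated nlp2 (log2 -0.67 ± 0.14, adjusted p = 0.0194, edgeR) and on the mean of the 3 conditions (log2 -0.55 ± 0.08, adjusted p = 0.000424, edgeR). On that mean the stomatal patterning gene TMM (AT1G80080) was called higher (log2 0.25 ± 0.06, adjusted p = 0.0421, edgeR). The part of either marker list in the lower levels of the 10 genes was not tested.

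Genes of similar profile were sought for 9 of the 10 members among 7836 other genes with a symbol, by the root mean square difference of centred log2 CPM over the 18 libraries. SUS1 was left out because its group means spanned only 0.87 log2 units. The nearest to HRE1 were ZFP4 (0.32), EMB1075 (0.32) and CYP72C1 (0.33), in log2 units. The nearest to PDC1 were NAC032 (0.48), GBSS1 (0.49) and MGDC (0.50), and the nearest to ADH1 were OZS1 (0.32), NUC-L2 (0.33) and CGA1 (0.33). PCO1 had the closest neighbour of all, JAL22 at 0.19, and LBD41 was nearest to STR18 at 0.28. Group means of PCO1 spanned 1.15 log2 units, the least of the 9 genes, and those of PDC1 3.15, the most. The distance depends on how far a gene moves, so it does not rank the 9 genes by likeness of profile. FTM1 (AT1G43800), one of the 40 further low-oxygen genes, was the nearest to HRE2 at 0.44 and the second nearest to SUS4 at 0.34, after AGL44 at 0.30. PCO2 was nearest to GDU2 at 0.31 and HRA1 to ABCG2 at 0.35.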

How the data were processed

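The authors deposited 1 table per library with whole-number read counts for 33602 gene models. Per the file headers, sam2pkm produced these counts once reads that hit other places equally well had been dropped (1.9% to 2.17% of mapped reads), and 96.97% to 98.53% of reads were mapped. Bowtie2 and TAIR10 are named in the submitters' processing notes, and per the labels' protocols libraries were poly(A)-selected, stranded and single-end. The sources used here state no versions, annotation or strand use.

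Counts were fitted in R 4.3.3 with edgeR 4.0.16: filterByExpr (minimum 10, total 15), TMM scaling, a robust quasi-likelihood model with 1 mean per group over all 18 libraries (12 residual degrees of freedom, common biological coefficient of variation 0.129), and Benjamini-Hochberg adjustment over all 21347 genes in each comparison, called at an adjusted p below 0.05. The fit was tested on simulated counts. Levels (mean ± SD) are CPM with TMM-scaled library sizes, and ± after a fold change is its standard error. Scaling with DESeq2 1.42.0 size factors, no filter, the replicate block and other settings were alternatives. The members, lists, tests and alternatives were chosen with earlier results of these data known.

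The labels give 1 set of dates to all dated libraries of a replicate number, and numbers were taken to pair the samples. No starved wild-type library is dated, nor are replicates 1 and 2 of nitrate-treated wild type. Pairs with those libraries rest on the number alone. Deviations from group means correlated at a median r of 0.201 over 45 pairs of libraries with the same number and -0.0714 over 90 pairs with different numbers. Differences within a replicate number used a pseudocount of 0.5 CPM. No pair within a group agreed within sampling noise. Named genes were all 10 members, up to 4 called genes of each other list with the smallest p, PGB1, PDC2, NLP2, NIR1, and the 3 nearest profiles. Identifiers without a symbol in the reference are given as such. Library precision is limited by 3 libraries per group.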

Additional observations from a re-analysis of the deposited data

How the results depend on the processing

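Over the alternatives, 2240 fold changes of single genes were recomputed; none that was called changed sign, 88 lost and 14 gained a call, and 2138 kept their side of the threshold, of which 1671 were called in neither fit (183 of these with another sign). Counts of called genes moved as follows, not all of them by over 1.5 times. For nitrate in wild type, 2 genes were lower with library size alone (PDC1 and SUS4) and 1 with only the groups compared (PDC1), against 0. For the genotype mean of 3 conditions, 1 gene (SUS1) was lower with the replicate block and 1 with DESeq2, against 0. Leaving out 1 library gave 6 to 8 genes for starvation in nlp2 and 6 to 8 in wild type, 0 to 1 lower with nitrate in nlp2, 5 to 7 for nitrate over untreated in nlp2 and 7 to 10 in wild type, and 0 to 3 lower for the genotype mean. Leaving out 1 replicate number gave 4 to 6 and 6 to 7 for starvation in nlp2 and wild type, 0 to 1 lower with nitrate in wild type, and 3 to 8 and 4 to 9 for nitrate over untreated in nlp2 and wild type. The block changed no calls among the 10 genes beyond SUS1 (starvation in nlp2, genotype mean), HRE2 and PCO2 (nitrate over untreated). Without the filter on low counts HRE2 and SUS4 lost calls in wild type and PCO2 and SUS4 in nlp2. Of all genes, those called between genotypes numbered 77, 78 and 168 in untreated, starved and nitrate-treated seedlings and 700 on average, 143, 137, 360 and 1327 with the block, and 149, 149, 293 and 942 with DESeq2; with only the groups compared they were 17, 168 and 104. In the same order they were 54, 67, 262 and 679 without replicate 1, 13, 20, 25 and 137 without replicate 2, and 10, 16, 17 and 100 without replicate 3. Without 1 library they ranged over 35 to 67, 37 to 59, 81 to 201 and 467 to 915. Without replicates 2 and 3 in turn, starvation called 4242 and 4033 genes in nlp2, against 6441, and 3849 and 3670 in wild type, against 6205; nitrate called 2389 and 1781 in nlp2, against 3969, and 2954 and 2218 in wild type, against 4558. Nitrate over untreated in nlp2 called 5174 without replicate 3, against 8243. With library size alone the share of calls that were higher with nitrate was 34.7% in nlp2 and 32.7% in wild type, against 50.3% and 52.4%, and for nitrate over untreated 64.9% and 62.9%, against 50.7% and 52.3%. Between genotypes that share was 64.4% with nitrate and 69.5% on average, against 46.4% and 49.3%. The cause of these shifts was not tested. Depth limits HRE2 most, at 100 reads over 3 untreated wild-type libraries.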
